A study of Mus musculus with 26 samples.

Results

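Of 58551 merged accessible regions in mouse pre-B cells, 16437 held a peak in all 8 ATAC-seq lists, and 270 of those were at least 2000 bp wide. These 270 wide shared regions are described here by how much of each region was covered in each library, how its peaks were split, and where its peak score stood among all shared regions. The members were chosen by peak coordinates, after merging the peaks of the 8 lists wherever they overlapped by at least 1 bp, on chromosomes 1 to 9 and 13 to 19 outside 67 to 71 Mb of chromosome 6. They were selected on presence in every list and on merged width, so widths are given as a description, with no test.

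The series holds 18 RNA-seq and 8 ATAC-seq libraries, and the ATAC-seq libraries form 4 groups of 2. One group was flow-sorted small pre-B cells of CXCR4-/- mice. The other 3 groups were cultured pre-B cells, labelled by medium: without IL-7 but with CXCL12 (IL7- CXCL12+), without IL-7 (IL7-), and with IL-7 (IL7+). The labels used here give no genotype for the cultures, no strain, age or Cre driver. Whether the 2 libraries of a group are from different animals or culture wells is also not labelled, and each p-value below reflects library-to-library spread alone, which could be purely technical. No ATAC-seq library of sorted wild-type cells was used, and genotype, developmental stage and culture therefore cannot be told apart between the sorted and the cultured groups.

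ATAC-seq uses the transposase Tn5, which inserts sequencing adaptors where DNA is not wrapped in nucleosomes, so its peaks mark accessible promoters, enhancers and other regulatory elements. A wide region can be 1 long open stretch or several neighbouring elements joined by the merging, and repeated sequence present in many copies can also collect reads over a long stretch. IL-7 drives the proliferation of pre-B cells, whereas CXCL12 is the bone marrow chemokine that signals through the receptor CXCR4. Small pre-B cells are the later, resting stage at which immunoglobulin light chain genes are rearranged.

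The deposited lists held 66503 and 57721 peaks in the sorted libraries, 35800 and 30832 in the IL7- CXCL12+ libraries, 42205 and 35299 in the IL7- libraries, and 37338 and 31659 in the IL7+ libraries. Replicate 1 had the longer list in each group, and read depth is not given in the sources used here. In RNA-seq libraries of the same labels, the pre-B markers Pax5, Rag1 and Il2ra were detected in every one of these groups. Cxcr4 stood at 37.8 and 412.2 CPM (reads scaled to the library total) in the 2 sorted CXCR4-/- RNA libraries, against 952.1 and 966.7 in sorted wild-type libraries. One of the sorted CXCR4-/- RNA libraries thus kept much of the transcript. The ATAC-seq lists cannot check the deletion, because no annotation of their build, mm9, was used here.

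The wide regions were 2001 to 5797 bp wide, with a median of 2155 bp, while the 16167 narrower shared regions had a median of 960 bp. Most lay near the lower bound, since 33 reached 2500 bp and 7 reached 3000 bp. The members just inside the bound were chr19:7341621-7343621 at 2001 bp, chr3:138737314-138739316 at 2003 bp, chr4:117507495-117509498 at 2004 bp and chr8:48005119-48007123 at 2005 bp. The shared regions just outside it were chr14:57429929-57431925 at 1997 bp, chr16:84834569-84836564 and chr3:94818694-94820689 at 1996 bp, and chr5:3802120-3804114 at 1995 bp. Coordinates are 1-based on mm9, and no gene names are given because the files do not pair regions with genes.

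The wide regions lay on every chromosome used, with some local grouping. They made up between 1.04% (chromosome 7) and 2.55% (chromosome 3) of the shared regions of a chromosome, against 1.64% overall. The median distance to the nearest other wide region was 2350 kb. Only 8 of the 270 lay within 10000 bp of another, in 4 pairs: chr3:96042489 with chr3:96049001, chr4:3008806 with chr4:3016610, chr5:15183826 with chr5:15194797, and chr5:14994400 with chr5:15006232, each named by its start. Both pairs on chromosome 5 lay between positions 14994400 and 15197155. Of the 158 shared regions that began in the first 4 Mb of a chromosome, 8 were wide, a larger share than the 1.64% overall. The 4 Mb limit was not part of the selection rule or of the planned comparisons, so nothing is read from this share. Within 10000 bp, the wide regions had on average 1.49 other accessible regions and the narrower shared regions 1.60.

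Wide regions, which were chosen by merged width, were covered over a longer stretch in the sorted libraries than in the cultures. The median covered length per library was 2019.5 and 1884.5 bp in the sorted libraries, 1567.5 and 1322 bp with CXCL12, 1835 and 1586 bp without IL-7, and 1630.5 and 1385 bp with IL-7. Both sorted libraries were above all 6 culture libraries, and the culture groups overlapped. The group means of these medians were 1952 ± 95.5 bp in sorted cells, 1444.8 ± 174 bp in IL7- CXCL12+, 1710.5 ± 176 bp in IL7- and 1507.8 ± 174 bp in IL7+ cultures (SD, n = 2 libraries each). The median covered length over all shared regions also differed between libraries. It was 841 and 792 bp in sorted cells, 725 and 668 bp in IL7- CXCL12+, 819 and 726 bp in IL7-, and 754 and 691 bp in IL7+ cultures. Divided by that library median, the covered length of wide regions was 2.39 ± 0.0155 times the usual region in sorted cells, 2.07 ± 0.129 times in IL7- CXCL12+, 2.21 ± 0.0396 times in IL7- and 2.08 ± 0.112 times in IL7+ cultures (SD, n = 2 libraries each). This quotient is called the relative width. Merged width chose these regions, and a region could reach 2000 bp through the libraries where it was wide. Sorted replicate 1 had the longest covered length in 138 of them, sorted replicate 2 in 49 and IL7- replicate 1 in 60. No other library had it in more than 10. Over all shared regions, IL7- replicate 1 (819 bp) stood above sorted replicate 2 (792 bp). Nothing is therefore read from the longer coverage in sorted cells, in bp or in relative width.

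**Figure D1:**
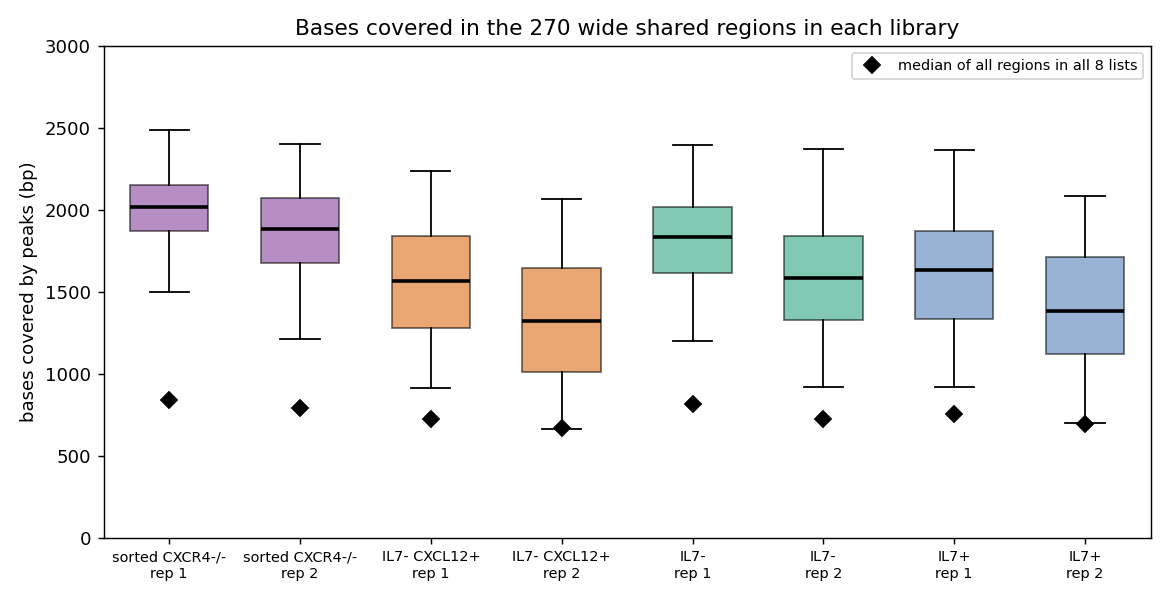
Bases covered by peaks (bp) in the 270 wide shared regions in each of the 8 libraries. Boxes span the 25th to 75th percentile, the line is the median, whiskers reach the 5th and 95th percentile, and diamonds mark the median of all shared regions. The sorted libraries have the highest medians, 2019.5 and 1884.5 bp.

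Few wide regions were 1 unbroken wide peak in each list. A single peak of at least 2000 bp was found in 103 and 57 of the 270 regions in the sorted lists, 21 and 7 in the IL7- CXCL12+ lists, 62 and 22 in the IL7- lists, and 25 and 10 in the IL7+ lists. Such a peak was present in at least 1 list in 162 regions and in all 8 lists in 3. Regions holding 2 or more peaks numbered 130 and 154 in sorted cells, 99 and 104 in IL7- CXCL12+, 71 and 93 in IL7-, and 83 and 89 in IL7+ cultures. The shares were 48.1% and 57.0% in the sorted lists, above the 26.3% to 38.5% of the 6 culture lists. The narrower shared regions showed the same order, with 4.85% and 4.96% split in the sorted lists and 1.68% to 2.52% in the culture lists. Over the lists, 57 regions held exactly 1 peak in every list, 18 held 2 or more in every list, and 195 were mixed.

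A large share of the merged width was common to all libraries. Of all bases in the wide regions, 48.9% lay under a peak in all 8 lists, and this common core had a median length of 1084 bp per region. Another 12.8% of bases were covered in sorted lists only and 7.02% in culture lists only. The core was a single segment in 157 regions, broken into 2 to 4 segments in 112, and absent in 1. That exception, chr14:45607806-45609844, had peaks that covered 2039 and 1597 bp in sorted cells, 731 and 1223 bp in IL7- CXCL12+, 1696 and 915 bp in IL7-, and 1628 and 350 bp in IL7+ cultures. Its peaks did not share a single base over the 8 lists. Outer edges shifted between lists by a median of 324.5 bp at the left and 249 bp at the right. In 7 regions both edges stayed within 100 bp, a limit chosen after the values were seen.

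The 2 regions with the longest cores were covered almost alike in every library. The widest, chr17:39979972-39985768, spanned 5797 bp with a core of 5161 bp. Its covered length was 5543 and 5542 bp in sorted cells, 5370 and 5369 bp in IL7- CXCL12+, 5392 and 5360 bp in IL7-, and 5470 and 5362 bp in IL7+ cultures, as 2 peaks in the sorted lists and 3 in the culture lists. Its edges moved by 13 bp on the left and 28 bp on the right. The second, chr1:24618403-24623065, was 4663 bp wide with a core of 4503 bp and was 1 peak in every list. It covered 4599 and 4600 bp in sorted cells, 4568 and 4566 bp in IL7- CXCL12+, 4570 and 4567 bp in IL7-, and 4565 and 4570 bp in IL7+ cultures. The next cores belonged to chr17:13743447-13746140 with 2455 bp, chr5:109985722-109988346 with 2303 bp, chr5:15183826-15187550 with 2288 bp, chr18:39648546-39651592 with 2043 bp, chr9:2999950-3002628 with 2002 bp and chr17:88839524-88841630 with 1937 bp. Whether such sharply bounded regions hold repeated sequence was not tested here.

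The most fragmented region was chr8:56205522-56209025, with 29 separate peaks over the 8 lists, 3 or 4 in each, and a core of 1009 bp in a width of 3504 bp. The other regions with most peaks were chr5:15183826-15187550 with 26, and chr17:39979972-39985768 and chr9:3035643-3038308 with 22 each. These last 3 also had long cores, of 2288, 5161 and 1673 bp.

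**Figure D2:**
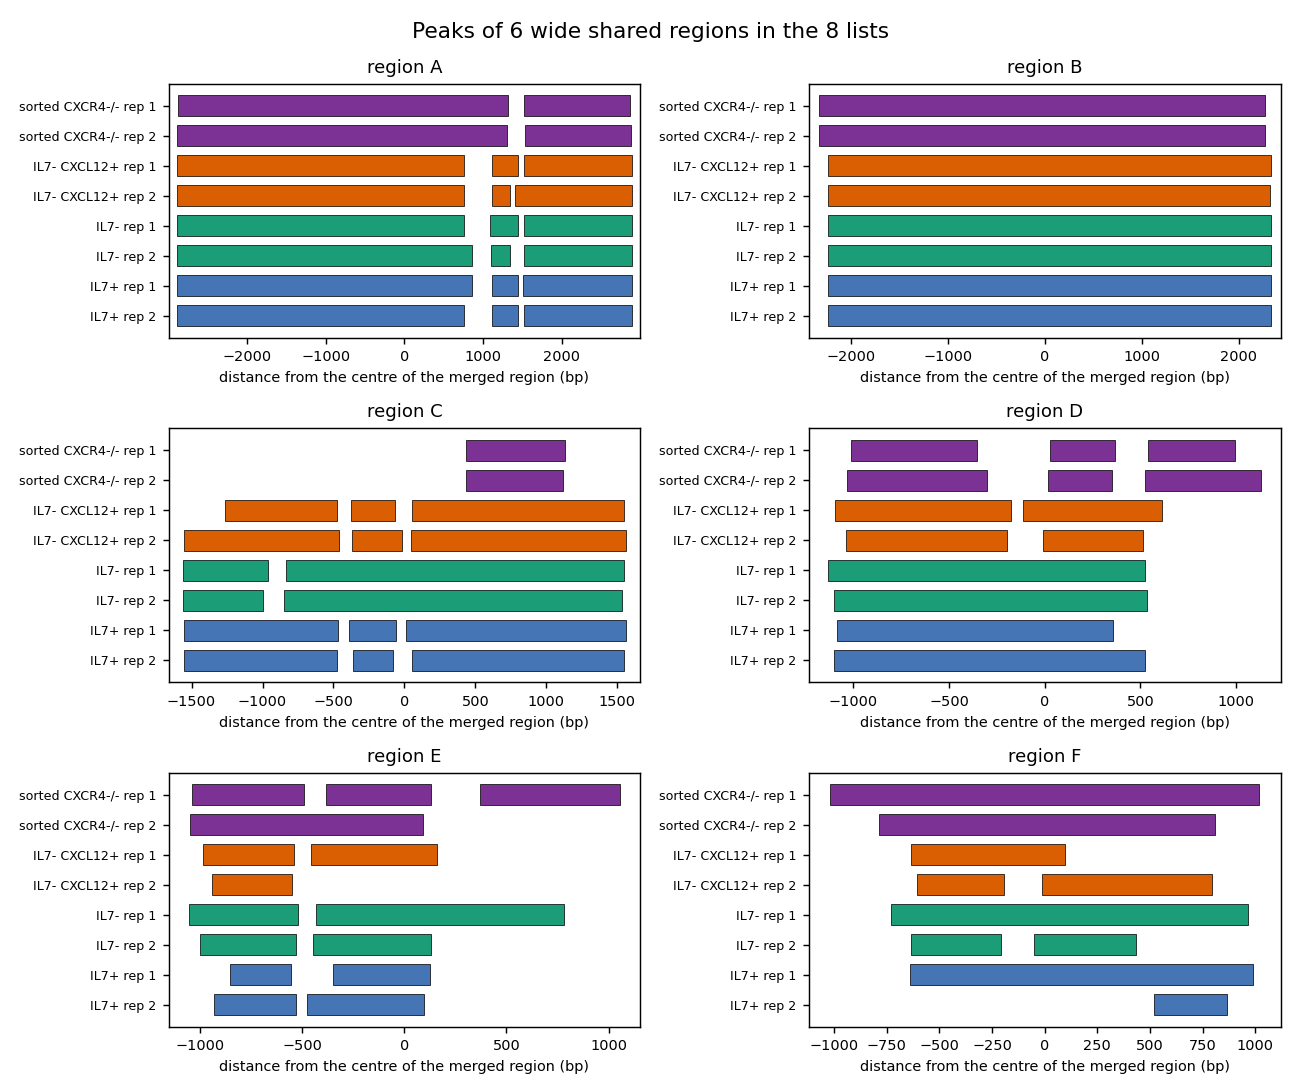
Peaks of 6 wide shared regions in the 8 lists, drawn as bars against the distance from the centre of the merged region (bp). A is the region at chr17:39979972 and B the one at chr1:24618403, B alike in all lists and A with 2 peaks in the sorted and 3 in the culture lists; C, at chr6:47602821, has 701 and 684 bp in the sorted lists; D, at chr9:44689016, has 3 peaks in each sorted list; E, at chr6:34901434, is split differently within and between groups; F, at chr14:45607806, has no base common to all lists.

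The score in each list is the authors' own value for a peak, on a −log10 p or q scale. It was used only as a rank: each region took the highest score among its peaks, and its percentile among the 16437 shared regions of the same library was read, 100 being the strongest. Wide regions were not uniformly strong. Their median percentile was 50.8 and 50.2 in the sorted libraries, 64.2 and 63.8 in IL7- CXCL12+, 62.3 and 64.7 in IL7-, and 65.3 and 65.0 in IL7+ cultures. In sorted cells the wide regions thus stood at the middle of the shared regions, and in each culture library above it. The wide regions were chosen by coordinates of the same peaks that carry these scores. The distance between these medians is therefore not read as a difference between sorted and cultured cells. Group means of these medians were 50.5 ± 0.412 in sorted cells, 64.0 ± 0.323 in IL7- CXCL12+, 63.5 ± 1.71 in IL7- and 65.1 ± 0.236 in IL7+ cultures (SD, n = 2 libraries each). Of the wide regions, 8 were at or above the 90th percentile in all 8 libraries, 93 were above the middle in all 8, and 49 were below it in all 8. The same counts were not made over all shared regions, so they are not read as particular to the wide ones.

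**Figure D3:**
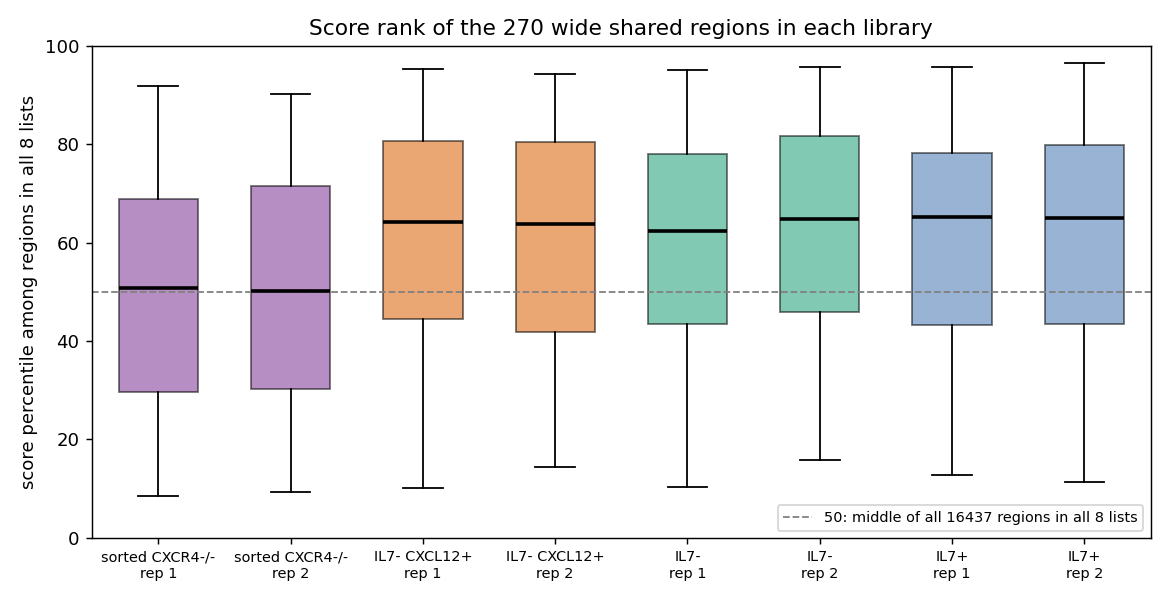
Score percentile of the 270 wide shared regions among all 16437 shared regions, per library. Boxes span the 25th to 75th percentile of the members, the line is the median, whiskers reach the 5th and 95th, and the dashed line marks 50; the 2 sorted libraries have medians of 50.8 and 50.2, below all 6 culture libraries.

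The order of the wide regions by score was close to the same in all cultures and different in the sorted cells, as it was for all shared regions. Over the 270 regions, Spearman's rho was 0.446 to 0.533 between a sorted and a culture library (12 pairs), 0.941 between the sorted replicates, 0.951 to 0.967 between libraries of different culture groups (12 pairs) and 0.961 to 0.971 between culture replicates (3 pairs). Over all 16437 shared regions, rho was 0.467 to 0.604 between a sorted and a culture library, 0.959 between the sorted replicates, 0.927 to 0.958 between libraries of different culture groups and 0.95 to 0.959 between culture replicates. These values describe regions, which are not replicates, and libraries of a pair differ in list length.

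Sorted CXCR4-/- cells were compared with the mean of the 3 culture groups by limma on the normal score of each rank, which turns ranks within a library into values with a standard normal spread. The score rank of 132 wide regions (48.9%) was lower and that of 53 (19.6%) higher in sorted cells at an adjusted p under 0.05, and 85 did not pass. Among all shared regions, 33.2% were called lower and 32.2% higher. Without sorted replicate 2, 35 wide regions were called higher. The median difference was -0.32 normal-score units over the wide regions and 0.01 over all shared regions, or -9.92 percentile points over the wide regions. Peak coordinates chose the wide regions, and the scores come from the same peaks. Sorted replicate 1 had the longest covered length in 138 wide regions and sorted replicate 2 in 49. Whether this choice moved their score ranks was not tested. Nothing is therefore read from how these shares and medians differ from those of all shared regions. The 132 lower regions had median percentiles of 41.3 in sorted cells and 72.6 in cultures, and the 53 higher regions 70.5 in sorted cells and 45.6 in cultures.

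The largest fall in normal-score units was at chr9:44689016-44691280. It stood at percentiles 3.05 and 3.85 in sorted cells, against 78.1 and 71.4 in IL7- CXCL12+, 80.6 and 79.7 in IL7-, and 83.8 and 80.0 in IL7+ cultures. The groups did not overlap, and the difference was -2.63 ± 0.12 normal-score units (SE; limma adjusted p = 7.3e-14). Its covered length differed little, at 1455 and 1674 bp in sorted cells, against 1650 and 1367 bp in IL7- CXCL12+, 1655 and 1638 bp in IL7-, and 1446 and 1628 bp in IL7+ cultures. The sorted lists split it into 3 peaks, the IL7- CXCL12+ lists into 2, and the other lists showed 1.

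At chr8:23969111-23971147 the region was among the strongest in all cultures, at percentiles of 97.4 and 99.0 in IL7- CXCL12+, 97.8 and 98.8 in IL7-, and 99.5 and 99.6 in IL7+, and stood at 42.8 and 41.8 in sorted cells. Its covered length was 1998 and 1908 bp in sorted cells. In the cultures it was 1523 and 1125 bp in IL7- CXCL12+, 1380 and 1322 bp in IL7-, and 1259 and 1164 bp in IL7+. Merged width chose this region, so nothing is read from its longer coverage in sorted cells. Its rank difference was -2.49 ± 0.16 (limma adjusted p = 3.3e-12). The next falls were at chr19:32830155-32832303, with a difference of -2.14 ± 0.14 (adjusted p = 4.8e-12), and chr5:125657943-125659982, with one of -2.07 ± 0.15 (adjusted p = 3.9e-11). Both sorted libraries were under the 13th percentile at these regions, and all 6 culture libraries above the 56th.

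The largest rise in normal-score units was at chr6:34901434-34903544, which stood at percentiles 62.1 and 56.6 in sorted cells, against 5.02 and 7.31 in IL7- CXCL12+, 7.35 and 11.9 in IL7-, and 7.25 and 2.37 in IL7+ cultures. It differed by 1.76 ± 0.27 (limma adjusted p = 3.9e-06), and its core was short, 301 bp. In percentile points it rose by 52.5, and chr7:105232162-105234232 rose by 56.2. The next rises in normal-score units were at chr7:105232162-105234232, by 1.67 ± 0.23 (adjusted p = 9.6e-07), chr4:122672551-122674753, by 1.53 ± 0.19 (adjusted p = 2.0e-07), and chr15:61869125-61871174, by 1.49 ± 0.37 (adjusted p = 0.0013). None of these 4 regions reached the 30th percentile in any culture library, and the lowest sorted value among them was 43.3. Every deposited peak scored at least 5. With a score of at least 10, the regions named on chr6, chr7 and chr15 were not found again with the same start and a peak in every list. The same held for some of the largest falls. In size, the rises were smaller than the 4 largest falls.

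**Figure D4:**
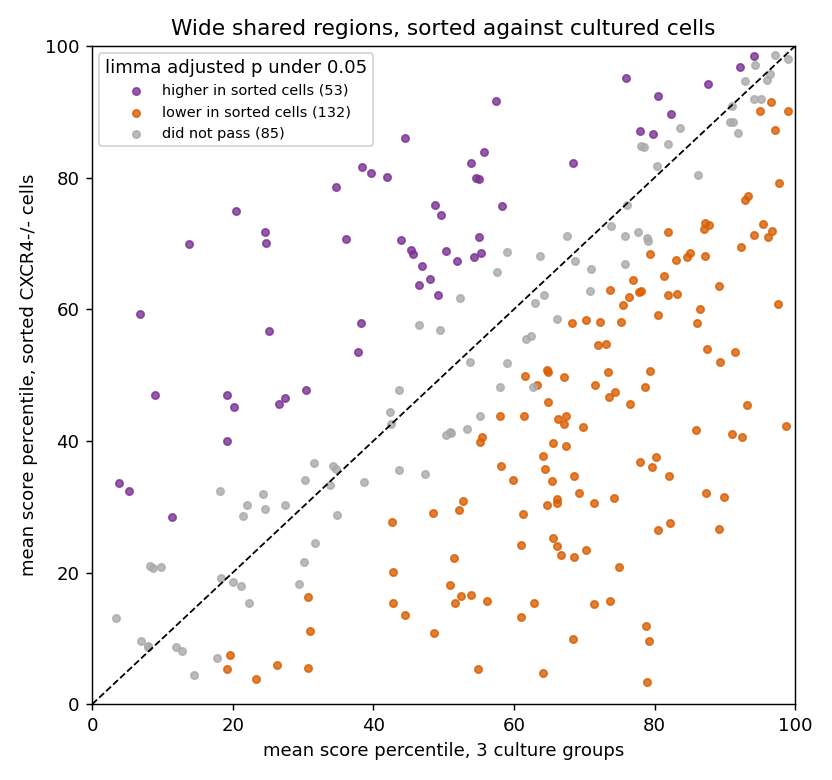
Mean score percentile of each of the 270 wide shared regions in sorted CXCR4-/- cells (vertical axis) against the mean of the 3 culture groups (horizontal axis). Purple points are the 53 regions called higher in sorted cells, orange points the 132 called lower and grey points the 85 that did not pass; the dashed line marks equal percentiles.

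Among the 8 regions with the longest cores, score rank moved in both directions. It was lower in sorted cells at chr17:39979972-39985768, with percentiles of 13.3 and 19.9 in sorted cells, against 57.4 and 56.9 in IL7- CXCL12+, 48.2 and 53.2 in IL7-, and 53.5 and 54.1 in IL7+ cultures (-1.08 ± 0.14, limma adjusted p = 5.0e-07). It was also lower at chr5:109985722-109988346 (-0.73 ± 0.12, adjusted p = 7.8e-06) and chr18:39648546-39651592 (-0.38 ± 0.12, adjusted p = 0.0073). It was higher at chr17:13743447-13746140, with percentiles of 92.9 and 97.2 in sorted cells, against 72.7 and 81.6 in IL7- CXCL12+, 74.8 and 70.8 in IL7-, and 77.0 and 78.6 in IL7+ cultures (0.98 ± 0.13, adjusted p = 7.5e-07). The other 4 did not pass, with adjusted p-values of 0.054 at chr1:24618403-24623065, 0.11 at chr9:2999950-3002628, 0.31 at chr5:15183826-15187550 and 0.33 at chr17:88839524-88841630. Of the 2 other regions with most peaks, chr8:56205522-56209025 had a difference of -0.52 ± 0.22 (adjusted p = 0.046) and chr9:3035643-3038308 one of -0.30 ± 0.13 (adjusted p = 0.039).

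Widths were compared between sorted and cultured cells in the same way, without a test. A region was counted as wider or narrower where the relative widths of the groups did not overlap and their means differed at least 1.5-fold. By that measure 34 wide regions (12.6%) were wider and 1 (0.370%) narrower in sorted cells, against 2.55% and 1.78% of all shared regions. Merged width chose these regions, and a region could reach 2000 bp through the group where it was wide, so nothing is read from the distance between these shares, here or in the culture comparisons below. Without sorted replicate 1, 7 were narrower. With peak lists of equal length, 19 of 211 were wider and 17 narrower, and by the widest single peak 26 were wider and 14 narrower, so the split into wider and narrower moved with list length and with the measure of width. The median ratio of relative width was 1.07 in the 53 regions with a higher score rank, 1.10 in the 132 with a lower one and 1.13 in the other 85.

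The narrower region was chr6:47602821-47605943, covered over 701 and 684 bp in sorted cells, against 2601 and 2953 bp in IL7- CXCL12+, 2986 and 2945 bp in IL7-, and 2962 and 2860 bp in IL7+ cultures, a relative width ratio of 0.215. Its score rank was lower too, with percentiles of 32.1 and 30.3 in sorted cells, against 60.9 to 69.8 in the 6 culture libraries (limma adjusted p = 4.3e-07). Every culture list held 2 or 3 peaks there, and each sorted list held 1. The largest widening in sorted cells was at chr16:76053547-76055686, with 1978 and 1482 bp in sorted cells, against 690 and 550 bp in IL7- CXCL12+, 866 and 691 bp in IL7-, and 659 and 453 bp in IL7+ cultures, a ratio of 2.39. The next were chr15:91736871-91739514 with a ratio of 2.34, chr5:113566148-113568170 with 2.31 and chr2:173100186-173102559 with 2.26. Score rank was higher in sorted cells at the region on chromosome 16 (adjusted p = 0.022), and lower at those on chromosome 15 (adjusted p = 1.2e-04) and chromosome 2 (adjusted p = 8.8e-05).

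Markers of other cells differed between RNA-seq libraries of the same labels. The summed level of 6 myeloid markers ranged over 718.4 to 4509 CPM in sorted CXCR4-/- cells, 541 to 551 in IL7- CXCL12+, 211 to 220 in IL7- and 110 to 153 in IL7+ cultures. That of 5 stromal markers ranged over 22.1 to 176 CPM in sorted cells, 3179 to 3213 in IL7- CXCL12+, 1247 to 1258 in IL7- and 511 to 883 in IL7+ cultures. That of 4 T cell markers was 30.1 to 39.9 CPM in sorted cells, 29.7 to 31.9 in IL7- CXCL12+, 70.5 to 71.5 in IL7- and 71.7 to 73.2 in IL7+ cultures, nearly all of it Lck, while Cd3d, Cd3e and Cd3g stayed below 1 CPM in each of these libraries. Every myeloid and T cell marker was above 0 in every library of these 4 groups, and so was every stromal marker except Col3a1, at 0 in 1 of the sorted libraries. The Cd3 genes were near the floor, with Cd3g as low as 0.0226 CPM in IL7+ cultures. The part of these other cells in the score ranks and widths was not tested.

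In the comparison of CXCL12 within cultures lacking IL-7, no wide region passed the test of score rank in IL7- CXCL12+ against IL7- cultures by limma, and neither did any of the 16437 shared regions, 0% in either direction. At an unadjusted p under 0.05, 4 wide regions (1.48%) were higher and 4 (1.48%) lower, against 2.33% and 2.87% of all shared regions, and the smallest adjusted p among them was 0.925. The median difference over the wide regions was 0.02 normal-score units, with a median SE of 0.16. In relative width, 12 wide regions (4.44%) were narrower with CXCL12 and 0 wider, against 1.24% and 0.28% of all shared regions. The most narrowed was chr5:113566148-113568170, which had 562 and 338 bp with CXCL12, against 1198 and 1077 bp without it, a ratio of 0.425. It was followed by chr15:61869125-61871174 with 0.427, chr9:8900007-8902167 with 0.473 and chr13:37917107-37919625 with 0.562. The IL7- CXCL12+ lists were also shorter than the IL7- lists of the same number, and with lists of equal length 8 wide regions (3.79%) were narrower and 2 (0.948%) wider. Without IL7- CXCL12+ replicate 1, 38 were narrower, and without IL7- replicate 2, 23 were narrower. Without IL7- replicate 1, 6 were wider, and without IL7- CXCL12+ replicate 2, 2 were wider. With no division by the library median 9.26% of the wide regions were narrower.

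Replacing IL-7 by CXCL12 gave 0 calls among the wide regions by limma in IL7- CXCL12+ against IL7+ cultures, where 0.608% of all shared regions were higher and 0.31% lower. At an unadjusted p under 0.05, 11 wide regions (4.07%) were higher and 8 (2.96%) lower, against 6.46% and 5.32% of all shared regions. The nearest to a call was chr5:104120642-104122790, named after its values were seen, at percentiles 82.7 and 77.5 in IL7- CXCL12+ against 56.2 and 64.2 in IL7+ cultures (0.59 ± 0.15, adjusted p = 0.066). In relative width 2 wide regions (0.741%) were wider and 5 (1.85%) narrower in IL7- CXCL12+, against 1.12% and 1.13% of all shared regions. The count wider was 18 without IL7- CXCL12+ replicate 2, 18 without IL7+ replicate 1 and 6 without IL7+ replicate 2. The count narrower was 18 without IL7- CXCL12+ replicate 1 and 16 without IL7+ replicate 2. The wider ones were chr2:158558599-158560926 with a ratio of 2.16 and chr19:40734028-40736041 with 1.67. The most narrowed were chr8:48005119-48007123 with 0.451, chr18:80451732-80453844 with 0.509, chr5:113566148-113568170 with 0.633 and chr2:167013932-167015943 with 0.634.

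Withdrawal of IL-7 alone gave 0 calls among the wide regions by limma in IL7- against IL7+ cultures, where 0.268% of all shared regions were higher and 0.0183% lower. At an unadjusted p under 0.05, 6 wide regions (2.22%) were higher and 6 (2.22%) lower, against 5.96% and 4.44% of all shared regions, and the smallest adjusted p was 0.218. In relative width 14 wide regions (5.19%) were wider and 2 (0.741%) narrower without IL-7, against 1.61% and 0.444% of all shared regions. The most widened was chr2:158558599-158560926, with 1767 and 1209 bp in IL7- against 562 and 531 bp in IL7+ cultures, a ratio of 2.50. The next were chr15:61869125-61871174 with 2.02, chr17:90853594-90855765 with 1.93 and chr19:40734028-40736041 with 1.84. The narrower ones were chr8:48005119-48007123 with 0.607 and chr18:80451732-80453844 with 0.649. The IL7- lists were longer than the IL7+ lists of the same number, and with lists of equal length 5 wide regions (2.37%) were wider and 3 (1.42%) narrower. The count wider was 31 without IL7+ replicate 1, 8 without IL7+ replicate 2 and 22 without IL7- replicate 2. The count narrower was 6 without IL7- replicate 1, 1 without IL7- replicate 2 and 3 without IL7+ replicate 2, against 2 with all libraries. The 3 culture comparisons share their libraries, so a region named in more than 1 of them was not measured again.

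**Figure D5:**
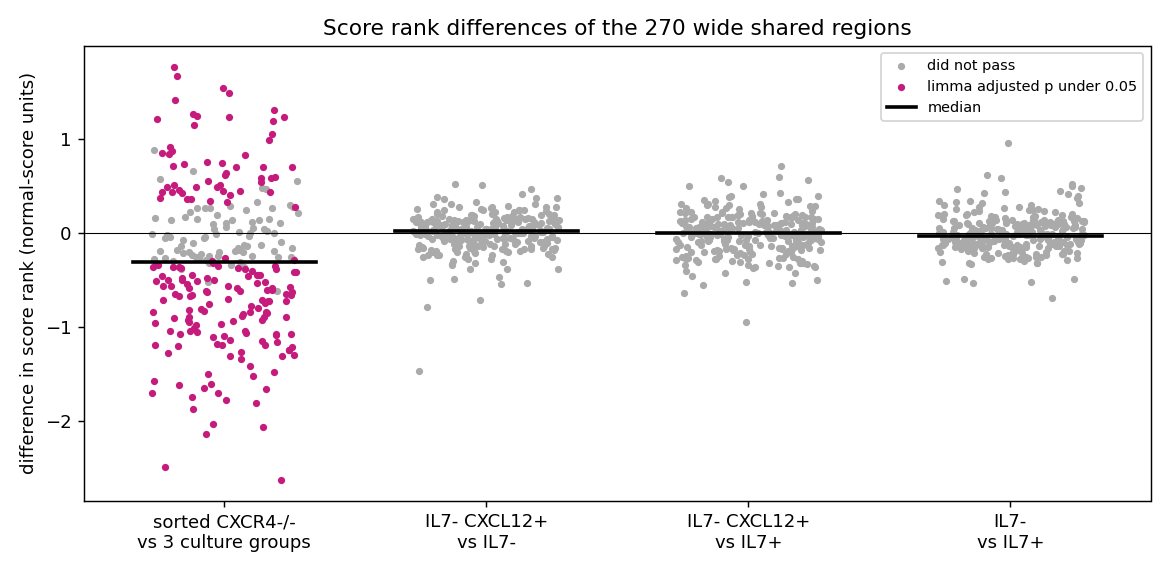
Difference in score rank (normal-score units) of each of the 270 wide shared regions in the 4 comparisons, with the median as a bar. Pink points passed limma's adjusted p of 0.05, 53 above 0 and 132 below 0 for sorted against cultured cells, and 0 in each of the 3 comparisons between cultures.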

How the data were processed

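For ATAC-seq, each of the 8 libraries has its own deposited peak list with coordinates and a score. The authors' score is on a −log10 p or q scale, which of them not stated; every deposited peak scored at least 5. The submitters' processing notes name MACS2, bedtools, BWA, Picard, STAR and featureCounts and the build mm9; versions, roles, read shifting, duplicate handling and depth are not given in the sources used here. Per the labels' protocols, PCR-amplified fragments of a limited size range were sequenced. The RNA-seq values deposited are raw counts per gene; here they were divided by each library's total to give CPM, only to check the labels.

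Peaks on chromosomes 1 to 9 and 13 to 19, outside 67 to 71 Mb of chromosome 6, were merged at 1 bp overlap (Python 3.11.15, pandas 2.3.3). The highest score per region was ranked within each library over the 16437 shared regions, turned into normal scores and fitted with limma 3.58.1 in R 4.3.3 (1 mean per group, all 8 libraries, moderated with trend and robust settings), with Benjamini-Hochberg adjustment over all shared regions and a threshold of 0.05. Percentages in brackets after a member count are shares of the 270 wide regions; the shares set against them are of all shared regions called by the same rule. Ratios of relative width compare geometric means of groups.

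Data were simulated for IL7- against IL7+ in 5 draws, each over 16437 regions with 200 changed. The fit recovered 42% of changes of 1 normal-score unit, 79.6% of changes of 2, 1.6% of changes of 0.5 and 0.4% of changes of 0.25. Of 317 calls summed over the 5 draws, 8 were false. The noise was normal and independent for each region and library, with the spread that each region showed within groups. The changed regions were drawn from all shared regions, not from the wide ones. Errors common to several regions or libraries were not simulated, so these figures may not hold for the real lists.

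Regions named are the 8 with the longest cores, 4 on each side of the width bound, up to 4 in each direction per comparison, the 4 with most peaks, and those within 10000 bp of another. The members, lists and tests were chosen with earlier results of these data known. Alternatives varied the width bound, merging, score minimum, list length, width measure, scaling, ratio, score scale, replicate block and libraries. Chromosomes outside the range above were not compared between groups. No sequences are printed.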

Additional observations from a re-analysis of the deposited data

Results flagged for a closer look

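Outside the chromosomes compared here, 61 further regions met the same rule of a peak in all 8 lists and a width of at least 2000 bp. There were 23 of 1196 shared regions on chromosome 10, 16 of 1498 on chromosome 11, 13 of 810 on chromosome 12 and 9 of 444 on chromosome X. None of the 2 shared regions on chromosome Y reached that width. They drew attention as signal in data that none of the comparisons used, and their scores and widths were not compared between groups.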

How the results depend on the processing

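The 8 regions named for the largest rank differences between sorted and cultured cells kept their direction in the 128 values that could be computed. With all libraries kept, they stayed past the threshold, with a largest limma adjusted p of 0.046. The 128 include the bounds of 1500 and 3000 bp, which do not enter the fit of a region. Those values repeat the main ones and check nothing. The 8 regions were also picked as the extremes of the same fit. With a score of at least 10, the regions at chr5:125657943, chr9:44689016, chr6:34901434, chr7:105232162 and chr15:61869125 were not found again with the same start and a peak in every list, and with equal list lengths those at chr5:125657943, chr9:44689016 and chr19:32830155 were not, so they have no value there. Over 17 results, the number of wide regions and the shares called in each comparison, 206 alternative values stayed near the value reported and 62 moved. A share of 0% that stayed at 0% was counted as near. All rank shares reported for the culture comparisons were 0%, so their part of the 206 is not read as stability. The number of wide shared regions was 1771 at 1500 bp, 7 at 3000 bp, and 199 to 267 with 1 library left out. The score rank share lower in sorted cells stayed between 43.7% and 50.7% with 1 library left out. The share higher was 13% to 19.3% with 1 library left out, the lowest, 35 regions, without sorted replicate 2, and 0% at 3000 bp. In IL7- CXCL12+ against IL7+, the share higher was 0.370% with log2 scores, 0.370% with only the groups compared and 0% to 0.370% with 1 library left out. The share lower was 0.113% at 1500 bp and 0% to 0.370% with 1 library left out. In the other 2 culture comparisons there were 0 rank calls among wide regions under every alternative run. The comparison with sorted cells uses all groups, so a fit of only the groups compared was not run for it.

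Relative widths moved more than the rank shares did in sorted against cultured cells, where those shares were not 0%. In sorted against cultured cells, the wider share was 7.45% at 1500 bp, 0% at 3000 bp, 23.0% with no division by the library median, 24.1% at a lower ratio bound and 11.1% to 15.9% with 1 library left out. The narrower share was 1.13% at 1500 bp, 14.3% at 3000 bp, 0.909% with gaps of 100 bp merged, 1.30% at a score of at least 10, 8.06% with equal list lengths, 5.19% by the widest single peak, 3.33% at the lower ratio bound and 0.370% to 2.59% with 1 library left out, the highest without sorted replicate 1. In IL7- CXCL12+ against IL7-, the wider share was 0.113% at 1500 bp, 1.74% at a score of at least 10, 0.948% with equal list lengths, 1.85% by the widest peak, 0.370% at the lower ratio bound and 0% to 2.22% with 1 library left out. The narrower share was 0% at 3000 bp, 10.4% by the widest peak, 9.26% with no division, 13.3% at the lower ratio bound and 4.81% to 14.1% with 1 library left out. In IL7- CXCL12+ against IL7+, the wider share was 2.48% at 1500 bp, 0% at 3000 bp, 1.42% with equal list lengths, 0.370% with no division, 5.19% at the lower ratio bound and 0.741% to 6.67% with 1 library left out. The narrower share was 0% at 3000 bp, 4.44% at the lower ratio bound and 1.48% to 6.67% with 1 library left out. In IL7- against IL7+, the wider share was 0% at 3000 bp, 2.37% with equal list lengths, 13% at the lower ratio bound and 2.96% to 11.5% with 1 library left out. The narrower share was 0.452% at 1500 bp, 0% at 3000 bp, 1.21% with gaps of 100 bp merged, 0.435% at a score of at least 10, 1.42% with equal list lengths, 0.370% by the widest peak, 0.370% with no division and 0.370% to 2.22% with 1 library left out. A bound of 3000 bp leaves 7 regions, and leaving out a library leaves 1 library in its group, assumed to vary like the others. The cause of the other moves was not tested.

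Same-numbered libraries did not deviate together (correlations of -0.00044 to 0.0473 over 6 pairs of groups). Such values cannot exclude a pairing by animal, culture or batch, and replicate 1 had the longer list in each group. With the replicate number as a block, 19.6% of wide regions were higher and 48.9% lower in sorted cells, and 0% in each direction in the 3 culture comparisons.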
